A study of Mus musculus with 12 samples.

Results

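The genes described here encode the machinery of mitochondrial oxidative phosphorylation, and their mRNA levels were measured in sorted bone marrow cells of mice. Members were the nuclear genes whose symbol begins with Nduf, Uqcr, Atp5, Cox4i, Cox5, Cox6, Cox7 or Cox8, together with Sdha, Sdhb, Sdhc, Sdhd and Cycs. Pseudogenes named with -ps were dropped, and each symbol was read from its brightest probe set among those that carry a single symbol. This gave 88 members of 22180 genes tested. By the role of their product, 32 encode subunits of complex I, 8 encode complex I assembly factors, 4 complex II, 7 complex III, 1 cytochrome c, 19 complex IV and 17 the ATP synthase, complex V. Ndufa4 and Ndufa4l2 carry a complex I name and were placed with complex IV, where the Ndufa4 protein is now known to reside. Another 8 symbols that the rule names, Cox6c, Ndufb2, Ndufb4, Ndufb4b, Ndufb4c, Ndufs6, Ndufs6b and Uqcr10, lie only on probe sets shared with other symbols and are not members.

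The cells were LSK cells, the lineage-negative, Sca-1-positive, Kit-positive fraction of bone marrow that holds hematopoietic stem cells and multipotent progenitors. They came from C57BL/6 mice and were not cultured. There were 4 groups of 3 Affymetrix arrays: wild type (Mll5+/+) mock, mutant (Mll5-/-) mock, wild type given N-acetyl-L-cysteine (NAC), and mutant given NAC. Mll5, now named Kmt2e, encodes a protein of the MLL family of chromatin regulators, and NAC is a thiol antioxidant and glutathione precursor. The NAC groups had 1 g of it per liter of drinking water from the mating of the Mll5+/- parents, through gestation, and for the rest of life. The mock groups had no NAC. The sources used here do not give the age and sex of the mice or how the Mll5 allele was made. Nothing in the labels ties the 3 arrays of a group to different animals, and the p-values below therefore cover the spread among these arrays, which may be partly technical.

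Oxidative phosphorylation passes electrons from NADH and succinate to oxygen and uses the energy released to make ATP. Complex I takes electrons from NADH and complex II takes them from succinate; both reduce ubiquinone. Complex III moves them to cytochrome c, complex IV passes them to oxygen, and the proton gradient that complexes I, III and IV build drives complex V. Complexes I and III are also the main sites where electrons escape to form superoxide. Hematopoietic stem cells are known for low reliance on respiration and for sensitivity to reactive oxygen species, and progenitors that divide and differentiate respire more. All the members are nuclear genes, and the mitochondrial genome encodes the remaining subunits.

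Many of these genes have promoters with binding motifs for nuclear respiratory factor 1 (NRF1) or for ETS-family factors such as GABP, also called NRF2. The reference table, from RefSeq, held a promoter for 73 of the 88 members, read here over the 250 bases before the annotated start on build GRCm38.p6. The letters searched on both strands were GCATGCG for NRF1, CCGGAAG for ETS factors and AAGATGG for YY1. GCATGCG matched in 11 of the 73 member promoters (15.1%). It matched in 3.43% of all 27025 genes with a promoter, and in 4.38% of the 16990 of them on the arrays. CCGGAAG matched in 14 members (19.2%), against 7.83% of all genes and 10% of those on the arrays. AAGATGG matched in 1, that of Atp5j (1.37%), against 5.18% and 4.89%. A match to CCGGAAG can run into one to AAGATGG over the letters AAG that both hold. Forward and reverse matches to GCATGCG can overlap in a run of 8 letters. The members with GCATGCG were Ndufa11, Ndufa6, Ndufa8, Ndufaf4, Sdhb, Cycs, Cox6a1, Atp5g2, Atp5k, Atp5j and Atp5l. Those with CCGGAAG were Ndufb6, Ndufb7, Ndufs3, Ndufaf1, Ndufaf8, Sdhd, Uqcr11, Uqcrh, Cox6a1, Cox6b1, Atp5e, Atp5h, Atp5j and Atp5l. Motifs were found on members of either direction: Ndufaf8, lower in the mutant, holds an ETS match, whereas Ndufa9, Cox5b and Cox7b, higher in the mutant, hold none of the motifs. A match is a description of the letters in this window and not evidence of binding. Promoters are given for members on which the results turn: Ndufaf1, which was higher in the mutant and holds an ETS match; Cycs, which was higher in the mutant and holds NRF1 matches on both strands; and Ndufaf3 and Cox6b2, which were lower in the mutant and hold none of the motifs. Capitals mark the matched letters.
Ndufaf1 promoter, GRCm38.p6 chr2:119662835-119663084, minus strand: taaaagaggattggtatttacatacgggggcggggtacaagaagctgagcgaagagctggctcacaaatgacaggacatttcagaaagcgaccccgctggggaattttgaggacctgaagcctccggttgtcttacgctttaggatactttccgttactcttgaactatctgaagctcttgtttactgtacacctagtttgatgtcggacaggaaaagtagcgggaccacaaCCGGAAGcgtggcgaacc
Cycs promoter, GRCm38.p6 chr6:50566570-50566819, minus strand: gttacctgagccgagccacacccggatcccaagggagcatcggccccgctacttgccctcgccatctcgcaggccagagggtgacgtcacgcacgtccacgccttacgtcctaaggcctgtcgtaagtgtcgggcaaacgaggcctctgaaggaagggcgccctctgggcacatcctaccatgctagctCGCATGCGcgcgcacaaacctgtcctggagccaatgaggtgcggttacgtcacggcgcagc
Ndufaf3 promoter, GRCm38.p6 chr9:108567437-108567686, minus strand: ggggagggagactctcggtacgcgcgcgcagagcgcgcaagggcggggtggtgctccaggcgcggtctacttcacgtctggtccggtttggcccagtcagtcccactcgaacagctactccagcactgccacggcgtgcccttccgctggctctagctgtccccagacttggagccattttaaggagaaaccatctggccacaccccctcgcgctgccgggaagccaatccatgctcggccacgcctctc
Cox6b2 promoter, GRCm38.p6 chr7:4753095-4753344, minus strand: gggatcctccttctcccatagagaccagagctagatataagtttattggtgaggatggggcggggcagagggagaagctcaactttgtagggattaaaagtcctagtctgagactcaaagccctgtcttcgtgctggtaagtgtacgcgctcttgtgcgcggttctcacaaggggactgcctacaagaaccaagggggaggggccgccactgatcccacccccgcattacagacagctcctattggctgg

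Values are log2 intensities, on which 1 unit is a doubling, and a difference is the first-named group minus the second. The 12 arrays had medians from 2.89 to 2.96 and pairwise correlations from 0.976 to 0.988, and no pair was identical. Wild-type mock array 1 and mutant NAC array 1 stood apart, with array weights of 0.71 and 0.54. Kit (9.05), Cd34 (10.36) and Flt3 (8.51) were well above the median gene level of 3.17. Of other lineages, 6 of 7 T and NK cell genes lay below that level, Cd3e (2.23), Cd4 (3.03) and Cd8a (2.61) among them, and so did 3 of 7 B-cell genes and 1 of 10 granulocyte and monocyte genes, Ly6g (2.01). The other 9 granulocyte and monocyte genes were above it, with Mpo at 11.37 and S100a8 at 8.77. The Sca-1 gene Ly6a was not on a probe set with a single symbol. Kmt2e, the targeted gene, averaged 7.52 in wild-type mock, 7.27 in mutant mock, 7.55 in wild-type NAC and 7.12 in mutant NAC. Its genotype difference over both treatments was -0.34 (SE 0.12, limma adjusted p = 0.419). Because the sources used here do not say what was deleted or where this probe set lies, its level does not check the genotype labels. In such bulk samples, fewer cells of a type and less RNA per cell cannot be told apart.

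Of the 88 members, 82 averaged above the median gene level and 6 did not (Cox7b2, Cox8c, Cox8b, Ndufa4l2, Ndufs5 and Atp5g1). Cox7b2, Cox8b, Cox8c and Ndufa4l2 are isoforms known from testis, muscle or hypoxic cells. The signals of all 6 were dim, and differences between groups in them are close to background.

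The first question was whether loss of Mll5 went with other levels of these genes. No member passed limma's test at an adjusted p under 0.05 in the mutant against wild type, in mock, in NAC or over both treatments, where 0.00902%, 0% and 0.00902% of all genes passed. Over both treatments 56 members were higher in the mutant and 32 were lower, against 50.7% higher among all genes and 51.9% among those above the median level. When single arrays were left out, the count of 56 was between 50 and 62, the lowest without wild-type mock array 3. The median difference over the members was 0.05, and over all genes it was 0.00. Without correction, 13 members were higher and 5 lower at p under 0.05, against 4.74% and 4.34% of all genes. Among the genes above the median level those shares were 6.87% and 6.2%. The 13 were 6 complex I or assembly genes (Ndufaf1, Ndufb3, Ndufaf6, Ndufs1, Ndufv2 and Ndufa9), Uqcrb, Cycs, Cox5b, Cox7b, Atp5mpl, Atp5pb and Atp5k. The 5 were Cox6a2, Ndufaf8, Cox6b2, Ndufaf3 and Ndufs5. The count of 13 was 8 without mutant mock array 1 and 6 without both arrays that stood apart.

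**Figure D1:**
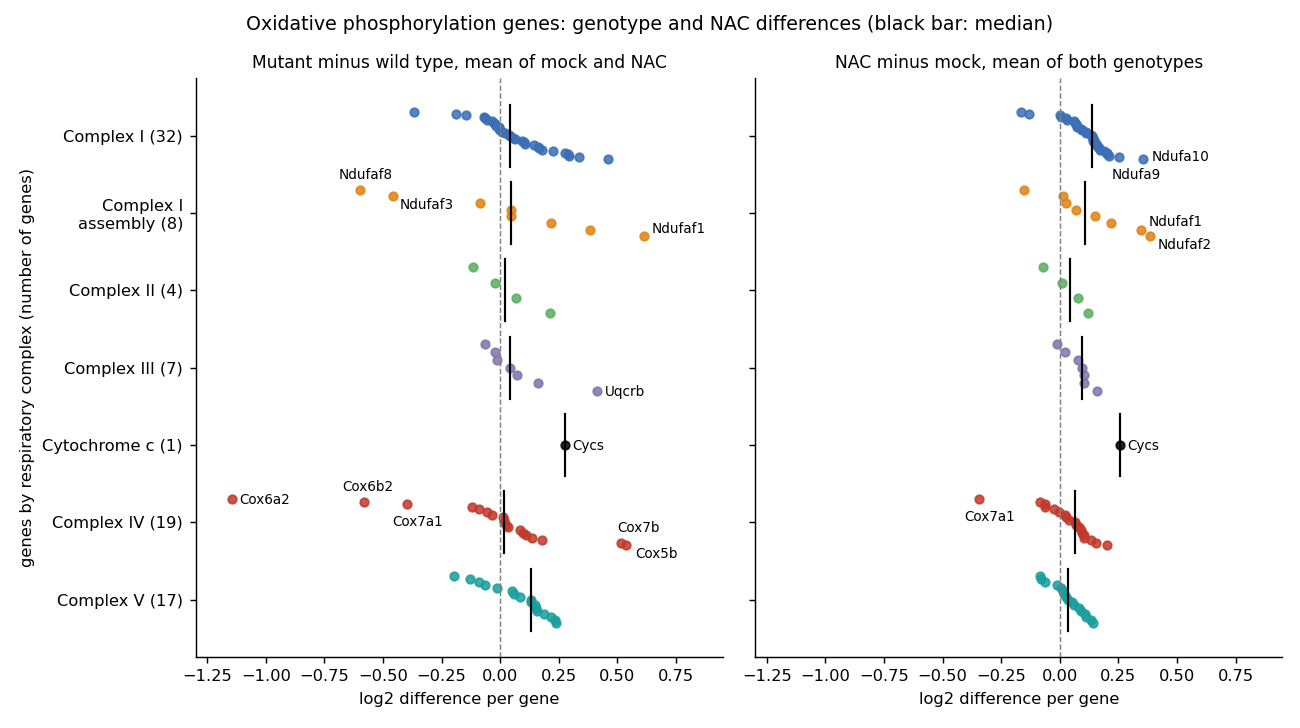
Genotype difference (mutant minus wild type, over both treatments) and NAC difference (NAC minus mock, over both genotypes) of each of the 88 members, in log2 units, by complex; points are members and black bars are medians of the complex. Cox6a2 (-1.14), Ndufaf8 (-0.60) and Cox6b2 (-0.58) are lowest by genotype and Ndufaf1 (0.61) is highest, while 30 of 32 complex I members lie above 0 by NAC.

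Complex I assembly factors held the widest spread of any complex apart from complex IV: 5 of 8 were higher in the mutant over both treatments and 3 lower, with a median of 0.05. Ndufaf1 is an assembly factor that helps build the membrane arm of complex I. Its wild-type mock arrays read 5.25, 5.60 and 5.37, and its mutant mock arrays 6.03, 6.02 and 5.92. Its wild-type NAC arrays read 5.61, 6.00 and 5.56, and its mutant NAC arrays 6.59, 6.20 and 6.32. Every mutant array lay above every wild-type array of the same treatment, and wild-type NAC array 2 (6.00) came within the range of the mutant mock arrays. The difference was 0.58 in mock and 0.65 in NAC, and over both 0.61 (SE 0.11, a 1.53-fold higher level, limma adjusted p = 0.105). The exact permutation test within treatments gave a two-sided p of 0.005, the smallest it can give with 400 arrangements. Any gene whose genotypes do not overlap, in the same direction, in both treatments must reach this value. There it restates that pattern and is not separate support. The test gave 0.005 for 6 members that were higher (Cox5b, Cox7b, Cycs, Ndufa9, Ndufaf1 and Uqcrb), against 0.775% of all genes. It did so for 3 that were lower (Cox6b2, Ndufaf3 and Ndufs5), against 0.568%.

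Ndufaf3 works with Ndufaf4 on the ubiquinone-reducing module, and it was lower in the mutant. It read 6.40, 6.05 and 6.48 in wild-type mock and 6.01, 5.88 and 5.75 in mutant mock. The wild-type NAC arrays read 6.16, 6.25 and 6.15 and the mutant NAC arrays 5.57, 5.53 and 6.00. All 6 mutant arrays were below all 6 wild-type arrays, although the nearest values, 6.01 and 6.05, almost met. The difference over both treatments was -0.46 (SE 0.11, limma adjusted p = 0.242, exact permutation p = 0.005).

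Ndufaf8 is a partner of the hydroxylase Ndufaf5, which modifies the core subunit Ndufs7. Its mean was 6.62 ± 0.54 (SD, n = 3) in wild-type mock and 6.07 ± 0.19 in mutant mock, and 6.82 ± 0.30 in wild-type NAC and 6.18 ± 0.03 in mutant NAC. The difference over both was -0.60 (SE 0.16, limma adjusted p = 0.298), and the mock groups overlapped. Ndufaf6, another assembly factor, read 4.46, 4.87 and 4.88 in wild-type mock and 5.50, 5.12 and 5.17 in mutant mock, without overlap. In NAC it read 5.09, 4.79 and 4.97 in the wild type and 5.09, 4.78 and 5.69 in the mutant, and those groups overlapped. Its difference was 0.53 in mock (SE 0.21, limma adjusted p = 0.721) and 0.38 over both (SE 0.15, limma adjusted p = 0.470). Ndufaf2 (-0.09), Ndufaf5 (0.05) and Ndufaf7 (0.05) had genotype differences smaller than their standard errors, and Ndufaf4 had 0.21 (SE 0.15).

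**Figure D2:**
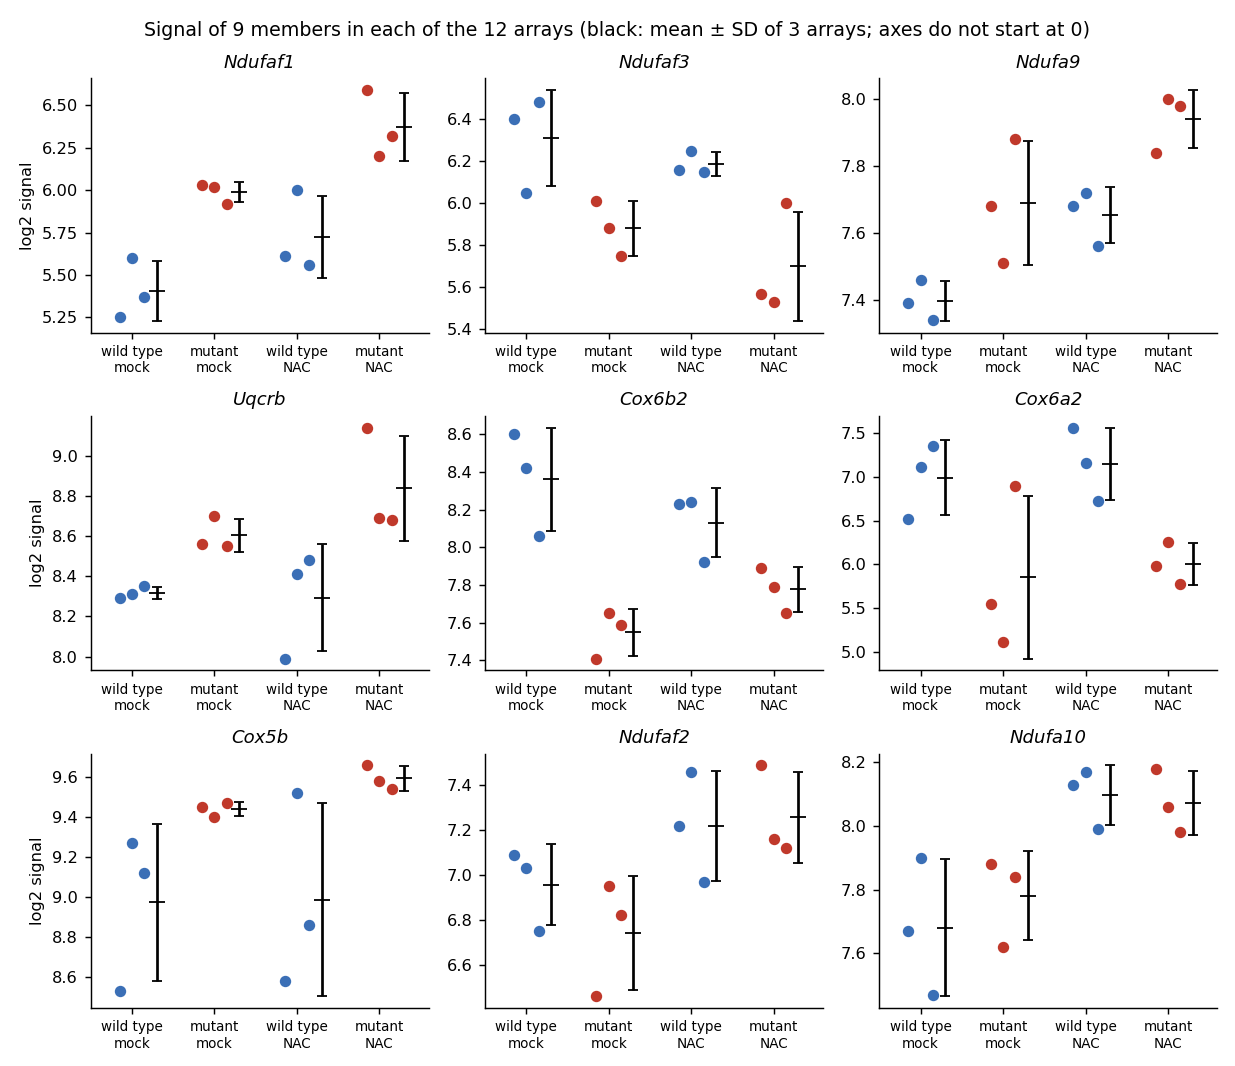
Log2 intensity of 9 members in each of the 12 arrays, by group (blue, wild type; red, mutant); points are arrays, the black marks are the mean ± SD of 3 arrays, and the axes do not start at 0. Ndufaf1, Ndufa9, Uqcrb and Cox5b sit higher in the mutant groups, Ndufaf3, Cox6b2 and Cox6a2 sit lower in them, and Ndufa10 sits higher in both NAC groups.

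Of the complex I subunits, 20 of 32 (62.5%) were higher in the mutant over both treatments, with a median of 0.04. This share was near that of all members (63.6%), and 50.7% of all genes were higher. Of the 6 core subunits measured, which form the conserved catalytic core, 2 were higher and the median was -0.01. Ndufs1 (0.34, SE 0.14) and Ndufv2 (0.29, SE 0.11, limma adjusted p = 0.423), both iron-sulfur proteins of the NADH-oxidizing module, were the higher ones. A second Ndufs1 probe set, shared with Ino80dos, had -0.05 (SE 0.19). Ndufv1, which binds NADH in the same module, had no difference beyond its error (-0.00, SE 0.09). Ndufs3, Ndufs7 and Ndufs8, of the ubiquinone module, had differences of -0.07, -0.19 and -0.02. Among the 26 accessory subunits 18 were higher, with a median of 0.05.

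Ndufa9, an accessory subunit at the joint of the arms, read 7.39, 7.46 and 7.34 in wild-type mock and 7.68, 7.51 and 7.88 in mutant mock. Under NAC the values were 7.68, 7.72 and 7.56 in the wild type and 7.84, 8.0 and 7.98 in the mutant. The genotypes did not overlap within either treatment, and the wild-type NAC arrays lay in the range of the mutant mock arrays. The difference was 0.29 in mock and 0.29 in NAC, and over both 0.29 (SE 0.09, limma adjusted p = 0.338, exact permutation p = 0.005). Ndufb3, a membrane-arm subunit, had 0.70 in NAC (SE 0.28, limma adjusted p = 0.667) and 0.46 over both (SE 0.20). Ndufs5, an intermembrane-space subunit, had -0.37 (SE 0.11, limma adjusted p = 0.339) on a dim probe set with a mean of 2.65. A brighter probe set shared with Ndufs5-ps, with a mean of 6.28, had -0.26 (SE 0.20). Ndufa1 in mock (0.34, SE 0.18), Ndufa3 in mock (-0.13, SE 0.11) and Ndufs3 in NAC (-0.25, SE 0.17) had limma adjusted p-values of 0.802, 0.875 and 0.803.

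Complex II, the succinate dehydrogenase of the TCA cycle, had small genotype differences in all 4 of its members. Over both treatments Sdha, which carries the flavin, had 0.21 (SE 0.10, limma adjusted p = 0.567), and Sdhb, the iron-sulfur subunit, had -0.02 (SE 0.11). The membrane anchors Sdhc and Sdhd had -0.12 (SE 0.10) and 0.07 (SE 0.10). Sdhd read 7.59, 7.75 and 8.12 in wild-type mock, 8.17, 7.98 and 8.05 in mutant mock, 8.06, 7.99 and 7.74 in wild-type NAC and 7.79, 7.78 and 7.88 in mutant NAC. Wild type and mutant overlapped in both treatments, with a difference of 0.25 in mock and -0.11 in NAC.

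In complex III, 4 of 7 members were higher in the mutant, with a median of 0.04. Uqcrb, a small subunit beside the ubiquinone site, read 8.29, 8.31 and 8.35 in wild-type mock and 8.56, 8.70 and 8.55 in mutant mock. With NAC it read 7.99, 8.41 and 8.48 in the wild type and 9.14, 8.69 and 8.68 in the mutant. Its 6 mutant arrays were all above its 6 wild-type arrays, the only member for which this held; 0.311% of all genes did so. The difference was 0.29 in mock, 0.54 in NAC and 0.41 over both (SE 0.11, limma adjusted p = 0.298, exact permutation p = 0.005). The core subunits Uqcrc1 and Uqcrc2 had 0.07 and 0.16, the Rieske protein Uqcrfs1 had 0.04, and Uqcrh, Uqcrq and Uqcr11 had -0.06, -0.02 and -0.01. Lower in all 6 mutant arrays were Ndufaf3 and Cox6b2, against 0.234% of all genes.

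Cytochrome c itself (Cycs) averaged 9.33 ± 0.07 (SD, n = 3) in wild-type mock, 9.56 ± 0.15 in mutant mock, 9.54 ± 0.14 in wild-type NAC and 9.86 ± 0.09 in mutant NAC. It was higher in the mutant in each treatment without overlap, by 0.23 in mock and 0.32 in NAC, and over both by 0.28 (SE 0.09, limma adjusted p = 0.365, exact permutation p = 0.005). The brightest of its 5 probe sets, used here, is the source of these values. The other Cycs probe sets had genotype differences of 0.82, 0.47, 0.47 and -0.07. Both probe sets at 0.47 also had the same mean level (6.70) and NAC difference (0.47), so they may not be separate measurements.

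Complex IV showed the largest single differences. Several of its subunits exist as a ubiquitous form and as a form restricted to muscle, heart, testis or lung. In mock, 5 of 19 members were higher in the mutant, and over both treatments 12 were, with a median of 0.02. Of the 10 ubiquitous subunits 9 were higher over both treatments (median 0.07), and of the 8 restricted isoforms 3 were (median -0.08). In mock, 5 of the 10 ubiquitous subunits were higher (median 0.02), and in NAC 8 were (median 0.15). The restricted isoforms had 0 of 8 higher in mock (median -0.09) and 3 of 8 in NAC (median -0.15). Cox6a2, the heart and muscle form of subunit 6a, read 6.52, 7.11 and 7.35 in wild-type mock and 5.55, 5.11 and 6.90 in mutant mock. With NAC it read 7.56, 7.16 and 6.73 in the wild type and 5.98, 6.25 and 5.78 in the mutant. The NAC groups did not overlap, and mutant mock array 3 (6.90) lay within the wild-type mock range. The difference was -1.14 in mock, -1.15 in NAC and -1.14 over both (SE 0.27, a 2.21-fold lower level, limma adjusted p = 0.225, exact permutation p = 0.01). Without mutant mock array 3 the difference was -1.41 (SE 0.19) and its limma adjusted p was 0.0237, in a range from 0.0237 to 0.421 over all alternatives; no other member passed in any of them. The ubiquitous Cox6a1 had -0.06 (SE 0.08).

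Cox6b2, the testis form of subunit 6b, read 8.60, 8.42 and 8.06 in wild-type mock and 7.41, 7.65 and 7.59 in mutant mock. With NAC it read 8.23, 8.24 and 7.92 in the wild type and 7.89, 7.79 and 7.65 in the mutant. All 6 mutant arrays were below all 6 wild-type arrays, and the gap was wider in mock. The difference was -0.81 in mock (SE 0.15, limma adjusted p = 0.358), -0.35 in NAC (SE 0.15, limma adjusted p = 0.682) and -0.58 over both (SE 0.11, a 1.5-fold lower level, limma adjusted p = 0.123, exact permutation p = 0.005). The ubiquitous Cox6b1 had 0.02 (SE 0.08).

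The heart and muscle form Cox7a1 had -0.40 (SE 0.19), and its ubiquitous partner Cox7a2 had 0.14 (SE 0.08). Cox4i2, the lung form, had -0.12 (SE 0.12) against 0.03 (SE 0.08) for Cox4i1. Thus in each of the 4 pairs whose restricted form lay above the median gene level, the restricted form had the lower difference. Cox7a1 (3.29) and Cox4i2 (3.78) lay little above that level (3.17). Only the Cox6a2 and Cox6b2 differences exceeded 3 times their standard error. Among the dim restricted forms, Cox8b went the other way, with 0.11 (SE 0.13) against 0.025 (SE 0.10) for Cox8a. Cox7b2, Cox8c and Ndufa4l2 had lower differences than Cox7b, Cox8a and Ndufa4. The difference between the forms of a pair was not tested.

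Cox5b, a zinc-binding subunit, read 8.53, 9.27 and 9.12 in wild-type mock and 9.45, 9.40 and 9.47 in mutant mock. With NAC it read 8.58, 9.52 and 8.86 in the wild type and 9.66, 9.58 and 9.54 in the mutant. The mutant arrays lay within a narrow range and above the wild-type arrays of their treatment, among which array 1 was the lowest in both treatments. The difference over both was 0.54 (SE 0.16, limma adjusted p = 0.332, exact permutation p = 0.005). Cox7b, a small membrane subunit, averaged 9.32 ± 0.37 (SD, n = 3) in wild-type mock, 9.77 ± 0.13 in mutant mock, 9.29 ± 0.61 in wild-type NAC and 9.86 ± 0.15 in mutant NAC. Array 1 was again the lowest of each wild-type group, at 8.89 and 8.58. The Cox7b difference was 0.52 (SE 0.18, limma adjusted p = 0.412), but it was -0.37 on the second, dimmer Cox7b probe set, and 0.07 when both were averaged. The second Cox5b probe set had 0.20.

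In complex V, 12 of 17 members were higher in the mutant over both treatments, with a median of 0.13. In mock it was 14 of 17, with a median of 0.08. The F1 part had 4 of 5 higher (median 0.06), the c-ring genes 2 of 3 (median 0.15), the peripheral stalk 2 of 4 (median 0.02) and the other membrane subunits 4 of 5 (median 0.15). Atp5mpl and Atp5k, small membrane subunits, had 0.24 (SE 0.10, limma adjusted p = 0.512) and 0.22 (SE 0.08, limma adjusted p = 0.469), and the stalk subunit Atp5pb had 0.23 (SE 0.11). The stalk subunit Atp5j had 0.24 in mock (SE 0.11) and the stalk subunit Atp5h -0.27 in mock (SE 0.12), both with a limma adjusted p of 0.744. Atp5a1 and Atp5b, the alpha and beta subunits of the catalytic F1 head, had 0.19 (SE 0.09) and 0.05 (SE 0.09).

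The genotype comparisons in mock and in NAC share no arrays, so they can be set side by side. In mock 51 members (58.0%) were higher in the mutant, against 50.5% of all genes and 54.4% of those above the median level. In NAC 57 members (64.8%) were, against 50.9% and 48.9%. Leaving out single arrays gave 44 to 62 in mock, the lowest without wild-type mock array 3, and 53 to 60 in NAC. The members' medians were 0.03 and 0.07, and those of the genes above the median level 0.02 and -0.01. At an unadjusted p under 0.05, 4 members were higher and 5 lower in mock, against 3.55% and 3.08% of all genes, and 12 were higher and 6 lower in NAC, against 3.46% and 3.71%. The mock count of 4 was 1 without mutant mock array 1, 2 without mutant mock array 3 and 7 without wild-type mock array 2. The mock count of 5 was 2 without wild-type mock array 1, and 3 without wild-type mock array 2 or mutant mock array 2. The NAC count of 12 was 3 without wild-type NAC array 1, and 7 without mutant NAC array 1 or 2. Groups did not overlap for 9 members higher and 4 lower in mock (5.94% and 5.46% of all genes), and for 21 higher and 8 lower in NAC (6.39% and 6.05%). In both comparisons 36 members were higher and 15 lower, against 28.7% and 26.9% of all genes. Across the 88 members the mock and NAC differences had a Pearson correlation of 0.70 (Spearman 0.48), and across all genes one of 0.24 (Spearman 0.18). These are correlations across genes read on the same arrays, which are not independent replicates. By size alone, far from 0 in both were Cox6a2, Ndufaf8, Ndufaf3, Cox7a1 and Cox6b2 on the lower side and Ndufaf1, Cox5b and Cox7b on the higher side. Of these, the dim Cox7a1 was within 2 standard errors of 0 in both (-0.44 and -0.36, SE 0.26). Cox7b was so in mock (0.45, SE 0.26).

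**Figure D3:**
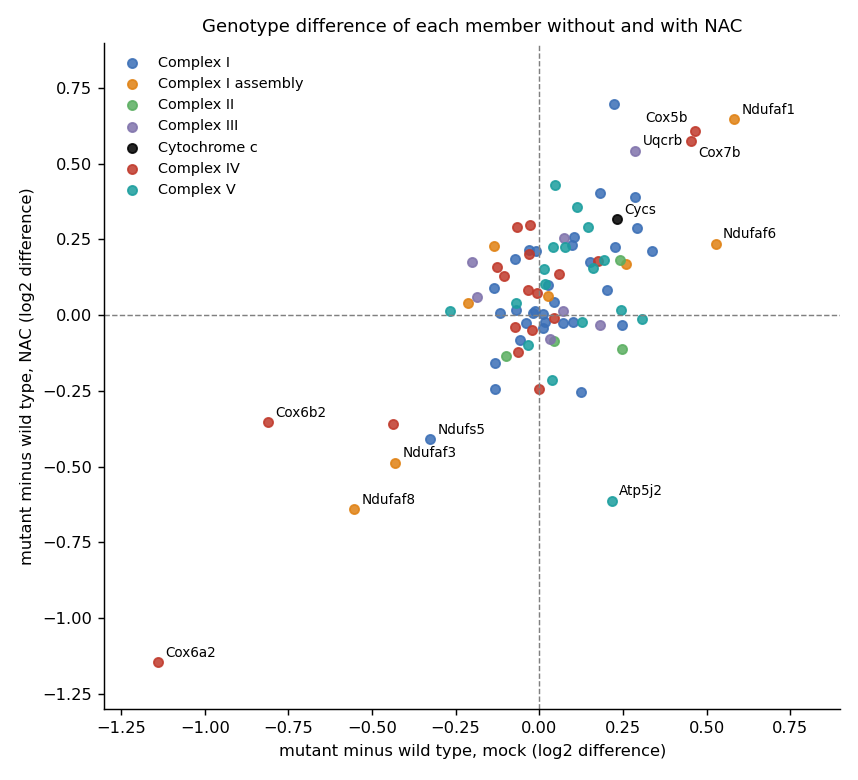
Genotype difference (mutant minus wild type, log2) in mock on the horizontal axis and in NAC on the vertical axis, 1 point per member, colored by complex. Ndufaf1 lies far up on both axes (0.58 and 0.65) and Cox6a2 far down on both (-1.14 and -1.15), with most other members near 0.

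Markers of cycling and of lineage had genotype differences too. Of 17 cell-cycle genes 15 were higher in the mutant over both treatments (median 0.15), 7 of them at an unadjusted p under 0.05, against 4.74% of all genes. Their mean level ranged over 7.39 to 7.62 in wild-type mock, 7.69 to 7.76 in mutant mock, 7.67 to 7.80 in wild-type NAC and 7.82 to 7.86 in mutant NAC, so that it did not overlap between genotypes in either treatment. All 7 megakaryocyte genes were higher in the mutant (median 0.50), and Selp passed limma's test (1.48, SE 0.18, adjusted p = 0.0269). Their mean level was 4.76 to 4.96 in wild-type mock, 5.09 to 5.67 in mutant mock, 4.64 to 4.80 in wild-type NAC and 5.45 to 5.50 in mutant NAC. All 6 genes of lymphoid priming were lower (median -0.88), with 6.41 to 7.34, 5.69 to 6.57, 6.81 to 6.89 and 5.64 to 6.27 in the same order. The 10 immediate-early genes, which respond to cell handling, were all lower (median -0.38), and none of the genes of these 4 lists lay below the median gene level. Of 10 granulocyte and monocyte genes 9 were lower (median -0.26), as were all 7 B-cell genes (median -0.11) and all 5 plasma cell genes (median -0.20), and 5 of 6 erythroid genes were higher (median 0.16). The plasma cell genes had mean levels of 4.85 to 5.14 in wild-type mock, 4.13 to 4.28 in mutant mock, 5.15 to 5.50 in wild-type NAC and 4.36 to 5.06 in mutant NAC. The 8 stem and progenitor markers measured went both ways, with 3 higher and 5 lower (median -0.10). At an unadjusted p under 0.05, 2 of them were higher and 3 lower, against 4.74% and 4.34% of all genes. For T and NK cells, 3 of 7 genes were higher (median -0.10). The part of all these markers in the differences of the oxidative phosphorylation genes was not tested.

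The second question was whether NAC went with other levels of these genes. Averaged over both genotypes, 73 of 88 members (83.0%) were higher with NAC, against 49.6% of all genes and 48.7% of those above the median level. The differences were small, with a median of 0.08 over the members and -0.00 over all genes. None passed limma's test (0.00451% of all genes did). At an unadjusted p under 0.05, 6 members were higher and none was lower, against 3.55% and 3.88% of all genes: Ndufaf2, Ndufa10, Ndufaf1, Cycs, Ndufa9 and Ndufb5. The count higher was between 64 and 72 when single arrays were left out, the lowest without wild-type mock array 3, and the 6 became 10 without wild-type mock array 2. In the mutant 67 members were higher with NAC (median 0.10) and in the wild type 58 were (median 0.06), against 49.8% and 49.2% of all genes and 46.3% and 51.3% of those above the median level. Leaving out single arrays gave 62 to 71 members higher in the mutant and 51 to 65 in the wild type. The 51 came without wild-type mock array 3, and the wild-type median was then 0.02. The comparisons within the mutant and within the wild type share no arrays.

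By complex, 30 of 32 complex I subunits were higher with NAC over both genotypes (median 0.14), all 6 core subunits among them (median 0.15). Array by array, their median deviation from the gene mean was -0.11, 0.04 and -0.15 in wild-type mock and 0.01, 0.03 and 0.05 in wild-type NAC. It was -0.06, 0.01 and -0.04 in mutant mock and 0.14, 0.04 and 0.07 in mutant NAC. Wild-type mock array 2 thus lay within the range of the NAC arrays. The assembly factors had 7 of 8 higher (median 0.11), complex II 3 of 4 (median 0.04), complex III 6 of 7 (median 0.09), complex IV 13 of 19 (median 0.06) and complex V 13 of 17 (median 0.04). In the wild type alone, complexes III and IV did not lean upward, with 3 of 7 and 9 of 19 members higher, whereas in the mutant 6 of 7 and 15 of 19 were. The other complexes did not share this contrast. Complex II had 4 of 4 higher in the wild type and 2 of 4 in the mutant, and the assembly factors 6 and 5 of 8. Complex V had 11 of 17 in both, and complex I had 24 of 32 in the wild type and 27 in the mutant. These shares were not tested against each other.

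Ndufa10, a membrane-arm accessory subunit, read 7.67, 7.90 and 7.47 in wild-type mock and 8.13, 8.17 and 7.99 in wild-type NAC. In the mutant it read 7.88, 7.62 and 7.84 in mock and 8.18, 8.06 and 7.98 in NAC. All 6 NAC arrays were above all 6 mock arrays, which 0.135% of all genes showed; no member was lower in all 6, and 0.203% of all genes were. The difference was 0.42 in the wild type (SE 0.14, limma adjusted p = 0.696), 0.29 in the mutant (SE 0.14, limma adjusted p = 0.850) and 0.35 over both (SE 0.10, limma adjusted p = 0.400). By genotype Ndufa10 had 0.04 (SE 0.10).

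Ndufaf2, an assembly factor related to the subunit Ndufa12, read 7.09, 7.03 and 6.75 in wild-type mock and 7.22, 7.46 and 6.97 in wild-type NAC, which overlapped. In the mutant it read 6.46, 6.95 and 6.82 in mock and 7.49, 7.16 and 7.12 in NAC, which did not. Its difference was 0.51 in the mutant (SE 0.17, limma adjusted p = 0.779) and 0.26 in the wild type (SE 0.17). Ndufaf1 was also higher with NAC, by 0.35 over both genotypes (SE 0.11, limma adjusted p = 0.456), and Cycs by 0.26 (SE 0.09, limma adjusted p = 0.505). For Ndufaf1, Cycs and Ndufa9 the mutant NAC group thus had the highest mean of the 4 groups.

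In the mutant, 7 members were higher with NAC at an unadjusted p under 0.05 and none lower, against 2.68% and 3.18% of all genes; 0.00451% of all genes passed after adjustment. They were Ndufaf2, Ndufaf5, Ndufaf1, Cycs, Cox7a2, Uqcr11 and Ndufa10. The 7 became 2 without mutant NAC array 1, 3 without mutant NAC array 2, 4 without mutant mock array 3, 10 without mutant NAC array 3 and 1 without both arrays that stood apart. Cox7a2, the ubiquitous form of subunit 7a, read 9.34, 9.50 and 9.32 in mutant mock and 9.75, 9.74 and 9.56 in mutant NAC, without overlap, and 9.37, 9.48 and 9.39 in wild-type mock and 9.29, 9.46 and 9.41 in wild-type NAC, where it stayed within the mock range or just under it. Its difference was 0.30 in the mutant (SE 0.11, limma adjusted p = 0.829). Groups did not overlap for 16 members higher and 2 lower, Atp5g1 and Sdhd, against 5.08% and 5.14% of all genes.

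In the wild type, Ndufa10 was the only member higher at an unadjusted p under 0.05 and none was lower, against 2.96% of all genes in each direction; 0.00902% of all genes passed after adjustment. This count became 4 without wild-type mock array 2, and also without both arrays that stood apart. Groups did not overlap for 2 members, Ndufa10 and Ndufa9, both higher, against 5.42% of all genes higher and 5.32% lower. Sdhd, the membrane anchor given above, had 0.11 in the wild type (SE 0.15) and -0.25 in the mutant (SE 0.15, limma adjusted p = 0.897). Cox7a1 was dim, with 4.10, 3.56 and 3.38 in wild-type mock and 3.44, 3.10 and 3.35 in wild-type NAC, and 3.13, 3.42 and 3.18 in mutant mock and 2.30, 2.99 and 3.52 in mutant NAC. Its arrays overlapped throughout, with -0.38 in the wild type (SE 0.26) and -0.31 in the mutant (SE 0.26). On the lower side over both genotypes, Ndufa7 had -0.17 (SE 0.10), Ndufaf3 -0.15 (SE 0.11) and Atp5g2 -0.08 (SE 0.09), with limma adjusted p-values of 0.786, 0.817 and 0.902.

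**Figure D4:**
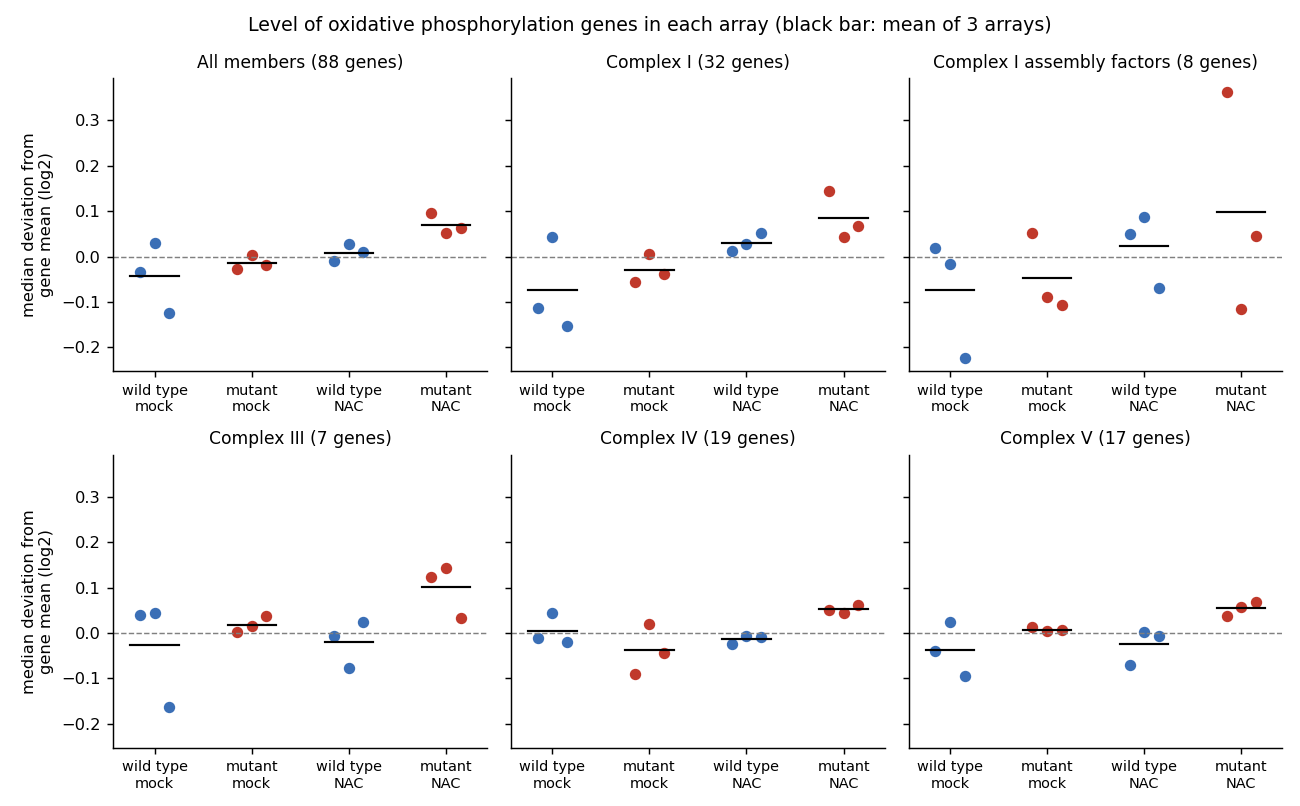
Median over all 88 members, and over complexes I, III, IV, V and the complex I assembly factors, of each array's deviation from the gene's own mean over 12 arrays, in log2 units, by group; points are arrays (blue, wild type; red, mutant) and black bars are means of 3 arrays. Over all members the 3 mutant NAC arrays are the highest, at 0.10, 0.05 and 0.06, and wild-type mock array 3 is the lowest, at -0.12.

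Taken array by array, the members' median deviation from their own 12-array means was -0.03, 0.03 and -0.12 in wild-type mock and -0.03, 0.00 and -0.02 in mutant mock. It was -0.01, 0.03 and 0.01 in wild-type NAC and 0.10, 0.05 and 0.06 in mutant NAC. The mutant NAC arrays were thus above the other 9, and the lowest value belonged to wild-type mock array 3 alone, in which 18 of the 88 members were above their own mean. In mutant NAC 59, 60 and 59 members were above theirs. The pooled SD of this median within groups was 0.04.

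Lineage and cycling markers had NAC differences as well. All 8 stem and progenitor markers measured were lower with NAC over both genotypes (median -0.29), 6 of them at an unadjusted p under 0.05, against 3.88% of all genes. Their mean level ranged over 6.61 to 7.01 in wild-type mock, 6.75 to 6.96 in mutant mock, 6.50 to 6.67 in wild-type NAC and 6.20 to 6.65 in mutant NAC. Of 10 granulocyte and monocyte genes 9 were higher (median 0.58), with 7.29 to 8.16, 6.50 to 7.77, 7.99 to 8.15 and 7.42 to 7.99 in the same order, and 1 of them, Ly6g, below the median gene level. Of 6 erythroid genes 5 were higher (median 0.55), with 4.48 to 5.05, 4.47 to 5.12, 4.95 to 5.32 and 5.10 to 5.89. All 17 cell-cycle genes were higher (median 0.16), at the levels given above, and 8 of 10 immediate-early genes were lower (median -0.18). Their part in the NAC differences was not tested.

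The third question was whether the NAC difference depended on genotype. No member and no gene passed limma's test of the interaction (0% of all genes). At an unadjusted p under 0.05 no member was higher and 1 was lower, against 2.02% and 2.2% of all genes, while 48 members had an interaction above 0 (50% of all genes did, and 45.6% of those above the median level), with a median of 0.03. The member was Atp5j2, which encodes subunit f of the ATP synthase membrane part. It read 4.48, 3.90 and 3.96 in wild-type mock and 3.91, 4.94 and 4.14 in mutant mock, and 4.33, 4.77 and 4.54 in wild-type NAC and 3.97, 3.92 and 3.91 in mutant NAC. The NAC groups did not overlap, while the mock groups did and mutant mock array 2 was the highest of all 12. The interaction was -0.83 (SE 0.33, limma adjusted p = 0.999), with NAC differences of 0.43 in the wild type and -0.40 in the mutant. Cox6b2 had an interaction of 0.46 (SE 0.22), Uqcr11 one of 0.38 (SE 0.18) and Sdhd one of -0.36 (SE 0.21), each with a limma adjusted p of 0.999.

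Neighboring pathways were followed as 5 further lists, in which no gene passed after adjustment in any comparison; 13 mitochondrially encoded subunits were not measured on probe sets with a single symbol. Of 13 subunits and carriers outside the naming rule, 10 were higher in the mutant over both treatments (median 0.07), with Slc25a5, the ADP/ATP carrier, at 0.19 (SE 0.07), Dhodh at 0.27 (SE 0.12), Higd1a at -0.23 (SE 0.16) and Etfdh at -0.09 (SE 0.12). Of 38 further assembly factors 22 were higher (median 0.02), with Cox20, which stabilizes the COX2 subunit, at 0.38 (SE 0.14), Lrpprc, which stabilizes mitochondrial mRNAs, at 0.19 (SE 0.11), Coa7 at -0.29 (SE 0.10), and Ttc19, a complex III factor, at -0.35 (SE 0.14). At an unadjusted p under 0.05, 2 of the subunits and carriers were higher and none lower, and 1 assembly factor was higher and 2 were lower, against 4.74% higher and 4.34% lower among all genes.

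The TCA cycle and pyruvate dehydrogenase genes, which feed NADH and succinate to the chain, were higher in 12 of 16 cases (median 0.09), with Dld at 0.27 (SE 0.10), Pdhb at 0.20 (SE 0.10), Idh3b at -0.18 (SE 0.11) and Dlst at -0.08 (SE 0.11). Regulators of mitochondrial biogenesis were higher in 13 of 17 cases (median 0.11), with the transcription factor Yy1 at 0.22 (SE 0.09), the coactivators Ppargc1a at 0.25 (SE 0.10, below the median gene level) and Pprc1 at -0.09 (SE 0.08), and the mitochondrial DNA polymerase Polg at -0.12 (SE 0.16). In glycolysis 9 of 14 genes were higher (median 0.03), with Pgam1 at 0.43 (SE 0.10, limma adjusted p = 0.242), Pgk1 at 0.14 (SE 0.09), Hk2 at -0.26 (SE 0.10) and Pfkp at -0.26 (SE 0.11). With NAC over both genotypes, 12 of 13 subunits and carriers (median 0.07), 24 of 38 assembly factors (0.06), 13 of 16 TCA genes (0.10), 5 of 17 biogenesis genes (-0.04) and 7 of 14 glycolytic genes (0.00) were higher. The carriers and TCA genes thus leaned the same way as the members. The biogenesis genes leaned the other way only in this average. Within the mutant and within the wild type alone, 8 of them were higher with NAC and 9 lower (medians -0.02 and -0.01).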

How the data were processed

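The measured values were log2 intensities of 41345 probe sets on 12 arrays, in 4 groups of 3. Per the submitters' processing notes, the authors deposited values made with Affymetrix Power Tools and RMA, with no version or settings given in the sources used here; the base of the log2 scale was read from their range (0.74 to 13.23). RMA quantile-normalizes the arrays together, which removes any global shift. Probe sets with 1 symbol (23521) were reduced to the brightest per gene.

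limma 3.58.1 (R 4.3.3) fitted a mean per group over all 12 arrays (lmFit, contrasts.fit, eBayes), for 7 comparisons, with Benjamini-Hochberg adjustment over 22180 genes and calls at 0.05. Its scripts were tested on simulated data. The genotype difference was also tested by exact two-sided permutation within treatments. Same-numbered arrays did not deviate together (18 pairs, correlations of -0.06 to 0.06, median 0.01), so replicate numbers were not used as pairs. Members and lists were chosen with earlier results of these data known, and the latter include markers of lineages. Named were up to 2 members per complex and direction with the smallest p in each two-group comparison and in the genotype difference over both treatments, 1 in the NAC difference over both genotypes and the interaction, every complex II member, Cycs, Cox6b2 and Cox5b, and up to 2 genes per direction of each pathway list; other names are members of a stated count, markers, partners in an isoform pair or subunits of a described class, chosen after their values were seen. Depth has no meaning for arrays; their number limits the precision, with a median SE of 0.16 for a difference between groups. Alternatives were other normalization, probe set and filter choices, variance models, array weights, a replicate block, and leaving out arrays. Figures were drawn with matplotlib 3.10.9.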

Additional observations from a re-analysis of the deposited data

How the results depend on the processing

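The count of members past the threshold was 0 in every comparison under each alternative, except for Cox6a2 in the genotype difference over both treatments without mutant mock array 3 (leaving out single arrays gave 0 to 1). The replicate block changed no call: it gave 0 members past the threshold in each comparison and a lowest adjusted p of 0.108 among 145 named differences, and the members' median genotype difference over both treatments was 0.05 with and without the replicate block. Over all genes, same-numbered arrays did not deviate together. That check cannot show whether single genes vary with the replicate number. The members' median interaction was 0.07 with each array centred on its median, in place of 0.03, and 0 to 0.0825 when single arrays were left out. Their median genotype difference in mock was -0.0025 to 0.0817, the lowest without wild-type mock array 3 and the highest without wild-type mock array 2. Counts at an unadjusted p under 0.05, and of members higher, were added to the alternatives after the data were seen. For NAC in the mutant the 7 members higher were 4 among genes above the median level or with only the groups compared; for genotype in NAC the 12 were 7 after a fresh quantile normalization, and for genotype in mock the 4 were 2 with each array centred on its median and the 5 lower were 3 with only the groups compared. Signs turned in named differences that were all within 2 standard errors of 0, mostly within 1. Without both arrays that stood apart, Cox7a1 was 0.0117 and Sdhc 0.102 and Uqcrc1 0.075 for NAC in the mutant, Ndufa13 was 0.0317, Ndufaf7 0.00333 and Sdhd -0.005 for NAC in the wild type, Sdhb was 0.0508 and Sdhc 0.00167 for genotype over both treatments, Sdhc was 0.0283 for genotype in mock and Uqcrc1 0.055 for genotype in NAC. With array weights, Ndufaf7 was 0.00133 for NAC in the wild type, Sdhb 0.000713 for genotype over both treatments, Uqcrc1 0.00766 for genotype in NAC, and Sdhc 0.0489 and Uqcrc1 0.0348 for NAC in the mutant. With each array centred, the last pair were 0.01 and 0.00333. Leaving out single arrays gave, for NAC in the mutant, -0.598 to 0.0117 (Cox7a1), -0.328 to 0.127 (Ndufaf6), -0.0417 to 0.158 (Sdha), -0.0283 to 0.162 (Sdhb), -0.0633 to 0.102 (Sdhc) and -0.0683 to 0.075 (Uqcrc1). For NAC in the wild type it gave -0.005 to 0.31 (Cox4i2), -0.148 to 0.0317 (Ndufa13), -0.162 to 0.0933 (Ndufaf7) and -0.005 to 0.26 (Sdhd), and for NAC over both genotypes -0.128 to 0.005 (Sdhd) and -0.0417 to 0.025 (Uqcrc2). For genotype it gave -0.222 to 0.0283 (Sdhc in mock), -0.085 to 0.055 (Uqcrc1 in NAC), -0.0767 to 0.0317 (Sdhb over both treatments) and -0.0792 to 0.0233 (Uqcrq over both treatments). The cause was not tested. The number of arrays limits the precision, and the 6 dim members are read close to background.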

Other observations

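Among the 8 symbols of the naming rule that were measured only on probe sets shared with other symbols, the brighter Cox6c probe set, shared with Gm6265, had a genotype difference of 0.13 (SE 0.07, limma adjusted p = 0.653) and a NAC difference of 0.18 (SE 0.07). Cox6c encodes a small complex IV subunit. The probe set shared by Ndufb4, Ndufb4b and Ndufb4c, of the complex I membrane arm, had genotype differences of 0.02 in mock and 0.34 in NAC. The brighter Ndufs6 probe set, shared with Ndufs6b, had 0.21 by genotype and 0.17 by NAC, and Ndufb2, shared with Adck2, had 0.12 and 0.07. Uqcr10, shared with Gm6293, had -0.03 and -0.10. A dim probe set that Uqcrb shares with Gm10767 had a genotype difference of -0.15 (SE 0.29), against 0.41 on the Uqcrb probe set used above. A probe set that Ndufs5 shares with Ndufs5-ps, brighter (6.28) than the one used (2.65), had -0.26 (SE 0.20), against -0.37. For Ndufs1, the probe set shared with Ino80dos had -0.05 (SE 0.19), against 0.34.

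Of the 10 members with several probe sets, Cox5b, Cox7b and Cycs differed most between them. In Cox5b, Cox7b and Ndufb3, wild-type NAC array 1 read 8.58, 8.58 and 6.14, the lowest of its group in each, and wild-type mock array 1 read 8.53, 8.89 and 6.03, also the lowest. These genes were picked out after their values were seen. Without wild-type NAC array 1, 3 members were higher in the mutant with NAC at an unadjusted p under 0.05, in place of 12.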
